A study of Mus musculus with 18 samples.

Results

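The proteasome genes of the retinal pigment epithelium (RPE) were examined in *rd1* mice whose eyes had or had not received Nrf2. They were taken by name, as every protein-coding gene whose symbol begins with *Psma*, *Psmb*, *Psmc*, *Psmd*, *Psme*, *Psmf* or *Psmg* followed by a digit, with no measured value in the rule. This gave 50 of the 47729 genes in the count table. They comprised 16 genes of the 20S core, 17 genes of the 19S cap, 5 genes of the immunoproteasome, 7 assembly factors and 3 other regulators. The remaining 2 were left outside these classes: *Psmc3ip* matches the pattern by name only, and *Psme2b* is named as a copy of *Psme2*. Of the 50 genes, 49 had enough counts to be tested. The exception was *Psma8*, a core subunit known from testis, which had between 0 and 14 counts in each library.

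Per the labels, the samples were RPE from 9 *rd1* mice at P40, a strain with a *Pde6b* mutation whose rods die early. The methods of the study name fewer pairs for this strain and age than the labels do, which could not be resolved, and every labelled pair was used. Per animal, 1 eye had been given AAV-Best1-Nrf2, carrying the human cDNA, together with AAV-Best1-GFP. The fellow eye had been given AAV-Best1-GFP alone and served as the control, so that both groups carried the *rd1* mutation and a GFP vector. By the methods of the study, eyes given both vectors received a higher total vector dose, and the Nrf2 vector had another capsid. Dose and capsid thus differed between the groups along with Nrf2. Best1 is an RPE promoter, so the vector was meant for the RPE, whereas the RNA came from the liquid collected over the eyecup after the retina had been taken off, and could hold transcripts of other cells. Both eyes of a mouse were compared with each other, which gave 9 pairs and 18 libraries.

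The proteasome degrades proteins that carry ubiquitin chains. Its 20S core is a barrel of alpha rings, which form the gate, and beta rings, which hold the catalytic sites. The 19S cap binds ubiquitin, unfolds the substrate with its ATPases and feeds it into the barrel. In cells exposed to interferon, *Psmb8*, *Psmb9* and *Psmb10* take the places of the catalytic subunits *Psmb5*, *Psmb6* and *Psmb7*, and *Psme1* and *Psme2* form another cap. Proteasome genes are known targets of the Nrf2 relative Nrf1 (*Nfe2l1*) when proteasome activity is impaired, and several have been described as targets of Nrf2. The comparison therefore asked whether the proteasome genes rose along with the antioxidant genes that Nrf2 controls.

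Library totals ranged from 18956748 to 49598700 counts, and the smallest was the control eye of mouse 8. The targeted gene *Nfe2l2* had a log2 fold change of 2.29 (higher in 9 of 9 mice, adjusted p = 6.21e-05, edgeR), and reads of the human cDNA and of the mouse gene could not be told apart. Of 21 RPE markers, 6 were lower and none higher with Best1-Nrf2, with a median log2 fold change of -0.383 and a mean log2 CPM that was lower in 8 of 9 mice. Their summed level, to which *Ttr* contributed 12860 CPM on average in control and 18020 CPM in Best1-Nrf2 libraries, ranged from 14930 to 73630 CPM (counts divided by the scaled library total) in control eyes and from 18200 to 82410 CPM in Best1-Nrf2 eyes. Rod and cone markers were lower for 15 of 21 genes tested (summed level, 483 to 3227 CPM and 326 to 1063 CPM), and *Rom1* was higher. Macrophage and microglia markers were higher for 12 of 20 genes (218 to 555 CPM and 245 to 906 CPM). In such bulk samples, fewer cells of a type and less RNA per cell cannot be told apart. The libraries also differed in how their counts were spread over short and long transcripts. On the first principal component (26.3% of the variance), 5 libraries stood above 50. They were the Best1-Nrf2 eyes of mice 3 and 6 and the control eyes of mice 3, 5 and 8. The number of calls and the core median are therefore given with and without these mice.

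Promoter sequences were available for 42 of the 50 genes in RefSeq (GRCm38.p6; 300 bases, from 250 before to 50 after the start), and not for *Psma8*, *Psmb1*, *Psmb2*, *Psmb7*, *Psmc3*, *Psmd3*, *Psmd7* and *Psmg2*. They were searched on both strands for TGACNNNGC, the core of the antioxidant response element to which Nrf2 and its relatives bind. The letters were present in 6 of the 42 genes (14.3%): *Psmb5*, *Psmb6*, *Psmc6*, *Psmd12*, *Psmd9* and *Psme4*. Of all 27025 genes in the same promoter table, 14% held them, so their share among proteasome genes was near the background. Among 12 canonical Nrf2 targets used for comparison, 8 had a promoter in the table and 4 of these held the letters. Shown here are the core genes *Psmb5* and *Psmb6* and the regulator gene *Psme4*, which are described below and hold the letters at -47, -9 and -7 from the start, and for contrast *Psma2*, the core gene with the largest estimate. In *Psmd9*, which is not shown, they lie at -31. Each run gives 100 bases before and 30 bases after the start, 5′ to 3′ on the strand of the gene, in lower case with TGACNNNGC or its reverse complement in capitals. They lie at chr14:54617966-54618095 (minus strand), chr11:70525257-70525386 (plus), chr11:30771675-30771804 (plus) and chr13:14613142-14613271 (plus).
Psmb5: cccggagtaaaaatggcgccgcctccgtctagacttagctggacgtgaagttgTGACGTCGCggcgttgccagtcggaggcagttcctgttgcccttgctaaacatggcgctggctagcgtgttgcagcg
Psmb6: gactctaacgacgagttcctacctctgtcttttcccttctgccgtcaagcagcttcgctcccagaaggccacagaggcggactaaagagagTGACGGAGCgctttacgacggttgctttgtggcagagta
Psme4: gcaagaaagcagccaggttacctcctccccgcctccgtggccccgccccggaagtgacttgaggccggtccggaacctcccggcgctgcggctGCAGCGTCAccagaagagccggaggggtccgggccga
Psma2: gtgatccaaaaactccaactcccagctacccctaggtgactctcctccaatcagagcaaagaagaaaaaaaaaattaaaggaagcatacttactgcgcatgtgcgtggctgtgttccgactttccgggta
The *Psmb5* and *Psmb6* matches read on the strand of the gene and that of *Psme4* on the other strand. These letters were absent from the *Psma2* window. The 6 genes with the letters had log2 fold changes from -0.15 to 0.53 (median, -0.0133), and the 36 without them that were tested had a median of -0.00096. A match is a description of the sequence and not evidence of binding.

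No proteasome gene passed the test between Best1-Nrf2 and control eyes. In the paired edgeR model, 0 of 49 genes were higher and 0 were lower at an adjusted p under 0.05, where 3.12% of all 18958 genes tested were higher and 1.13% were lower. Adjusted p ranged from 0.229 to 0.999. The genes with an unadjusted p under 0.05 were *Psma2*, *Psme4* and *Psme2b*, 3 of 49, whereas 12.8% of all genes reached this level. DESeq2 also called 0 genes, where it called 7.8% of all genes in either direction. Limma voom called 1 of 49 genes, *Psme2b*, lower, where 2.65% of all genes were lower. None of the 49 genes differed the same way in 9 of 9 mice, as 4.36% of all genes did. The median log2 fold change was -0.0134, with 22 estimates above zero and 27 below, and the median of all genes was -0.025.

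The precision of these estimates was high relative to the other genes of the table, which were not matched to them for level. The median standard error was 0.178 for the proteasome genes and 0.292 for all genes, and the median standard deviation of the difference between eyes over the 9 mice was 0.505 and 0.834. The upper end of the 95% interval was below 1 on the log2 scale, a doubling, for 49 of 49 genes, and the whole interval lay within a doubling either way for 46. The exceptions were *Psmb11*, *Psmb8* and *Psme2b*, whose lower ends were at -1.22, -1.67 and -1.35. These intervals are for single genes in the paired edgeR fit and were not widened for the number of genes. With rod and cone markers as a covariate, the estimates of *Psmb3* (1.21), *Psmb5* (1.01) and *Psmg4* (1.64) were above a doubling without being called, and with macrophage and microglia markers that of *Psme4* (1.04) was. For comparison, 12 of 12 canonical Nrf2 targets were higher in the same libraries, with a median log2 fold change of 3.48. *Gclm*, a subunit of glutamate-cysteine ligase, had a log2 fold change of 3.43, and *Nqo1*, a quinone reductase, had 2.02.

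**Figure D1:**
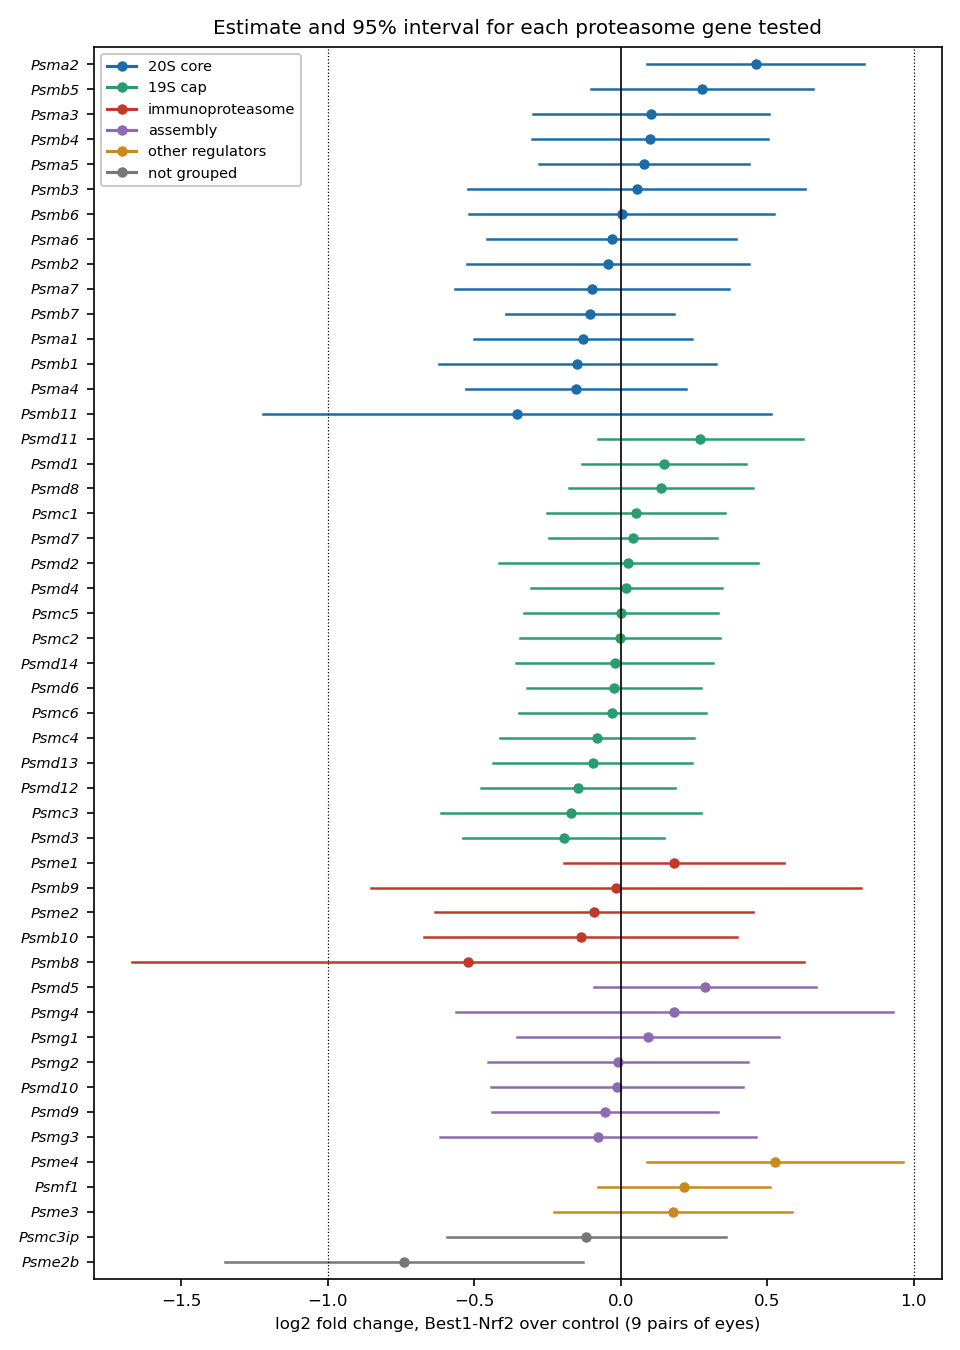
Each point is the log2 fold change of 1 proteasome gene between Best1-Nrf2 and control eyes (9 pairs) and each bar its 95% interval, coloured by class, with dotted lines at a doubling and a halving. The points lie between -0.74 (*Psme2b*) and 0.53 (*Psme4*), and no bar reaches the right-hand dotted line.

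In the 20S core, 0 of 15 genes tested passed in either direction (median log2 fold change, -0.0315; range, -0.35 to 0.46). Across fits this class median changed sign, with 0.0905 without mouse 2, -0.14 without mouse 6 and 0.704 with the rod and cone covariate. The median was -0.0315 for the 7 alpha ring genes and -0.0202 for the 8 beta ring genes. *Psma2* (ENSMUSG00000015671, chromosome 13, 14613240-14674236), an alpha ring subunit, had the largest estimate. Its level was 91.02 CPM at the lowest, 147 CPM at the median and 229 CPM at the highest in control eyes, and 119.9 CPM, 204 CPM and 357 CPM in Best1-Nrf2 eyes. The ranges overlapped broadly, and the Best1-Nrf2 eye was the higher one in 8 of 9 mice, all but mouse 2. The log2 fold change was 0.46 (95% interval, 0.09 to 0.83, unadjusted p = 0.0191, adjusted p = 0.229), which is 1.38-fold. With the rod and cone covariate the *Psma2* estimate was 0.938, outside that interval, and it was not called. With the length slope of each library, defined below, as a covariate, the estimate was 0.43 and *Psma2* was called (adjusted p = 0.0357), the 1 proteasome gene higher in a setting where 4.44% of all genes were.

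The catalytic subunits of the core were examined one by one. *Psmb5* (ENSMUSG00000022193, chromosome 14, 54614119-54618022) carries the chymotrypsin-like site. It had 56.5 CPM at the lowest, 77.9 CPM at the median and 124.5 CPM at the highest in control eyes, and 59.7, 102 and 172 CPM in Best1-Nrf2 eyes. The ranges overlapped, with the Best1-Nrf2 eye higher in 7 of 9 mice, and the log2 fold change was 0.28 (95% interval, -0.10 to 0.66, adjusted p = 0.596). Of the 31-base words of *Psmb5* transcripts, 71.7% occur in other annotated genes, mostly in *Gm3375*, so its counts depend on how shared reads were assigned. For *Psmb6*, with the caspase-like site, the log2 fold change was 0.0032 (95% interval, -0.52 to 0.52), and for *Psmb7*, with the trypsin-like site, it was -0.10 (-0.39 to 0.18). The interval of *Psmb7* was the narrowest of the core. *Psmb11*, the beta subunit of the thymus, lay 3410 bases from *Psmb5* on the other strand and was hardly expressed, at 0.23 to 2.06 CPM in control eyes and 0.28 to 1.35 CPM in Best1-Nrf2 eyes.

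**Figure D2:**
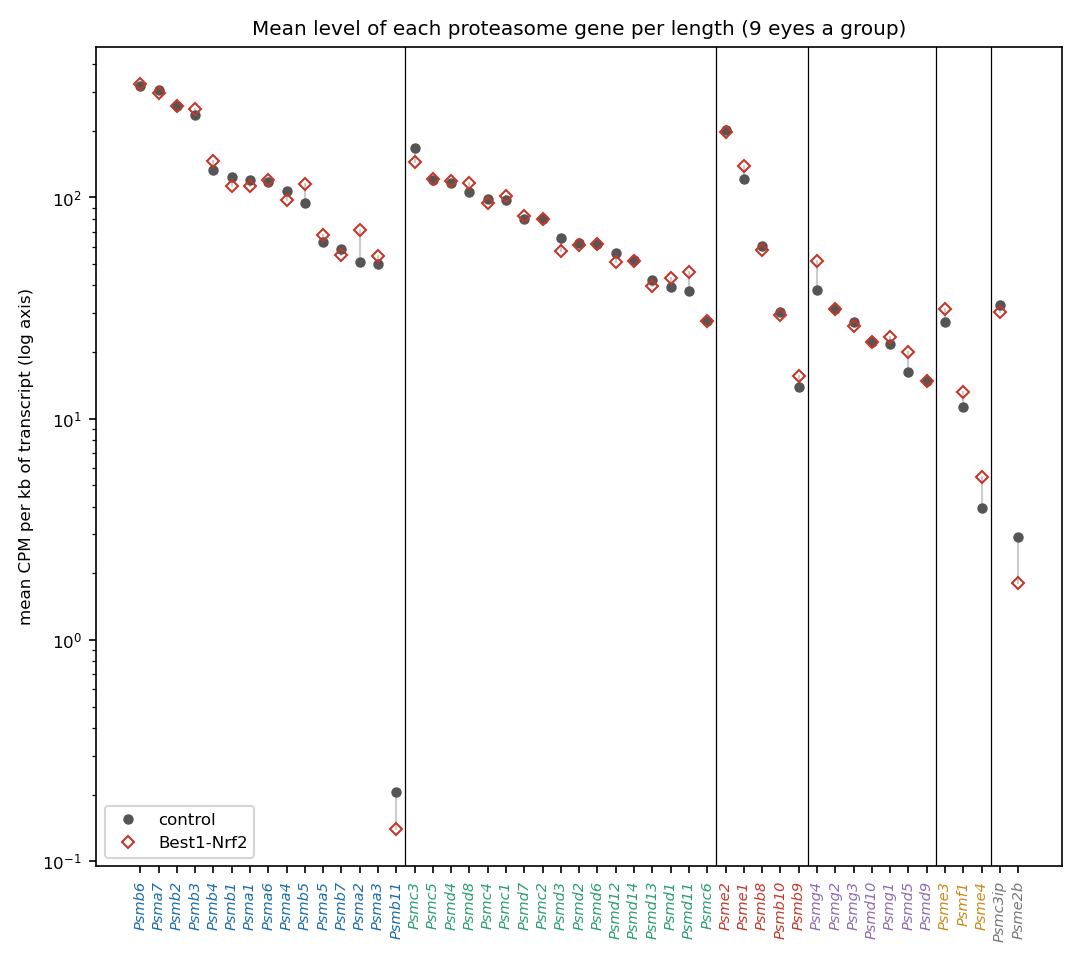
Mean CPM per kb of transcript in the 9 control eyes (filled grey points) and the 9 Best1-Nrf2 eyes (open red diamonds) for 49 proteasome genes, grouped by class on a log axis. The points of a gene lie close together across a range from 0.20 for *Psmb11* to 319 for *Psmb6* in control eyes.

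Levels were compared between genes per kb of transcript. In control eyes the core genes had a median of 118 CPM per kb, the cap genes 65.7, the immunoproteasome genes 60.6 and the assembly factors 22.25. *Psmb6* (319), *Psma7* (304), *Psmb2* (258) and *Psmb3* (237) were at the top of the core, and *Psma2* (50.9) and *Psma3* (49.9) were, apart from *Psmb11*, at its end. This measure depends on the transcript model chosen for each gene.

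In the 19S cap, 0 of 17 genes passed, and none did at an unadjusted p under 0.05 (median log2 fold change, -0.00292; range, -0.19 to 0.27; adjusted p, 0.566 to 0.999). The sign of this median was not stable, since it was 0.0928 without mouse 2, -0.0548 without mouse 8, -0.155 without mice 3, 5, 6 and 8, and 0.251 with the rod and cone covariate. The 6 ATPases of its base had a median of -0.0163 and the 8 lid subunits -0.0214. *Psmd11*, a lid subunit, had the largest estimate. Its level was 88.35 CPM at the lowest, 97.0 CPM at the median and 165 CPM at the highest in control eyes, and 89.5, 118.5 and 177 CPM in Best1-Nrf2 eyes. The ranges nearly coincided, although the Best1-Nrf2 eye was higher in 7 of 9 mice (log2 fold change, 0.27, 95% interval, -0.08 to 0.62, adjusted p = 0.566). At the other end, *Psmd3*, also of the lid, had -0.19 (-0.54 to 0.15) and was lower in 7 of 9 mice. The deubiquitinase of the lid, *Psmd14*, had -0.021 (-0.36 to 0.32), and the ubiquitin receptor *Psmd4* had 0.019 (-0.31 to 0.34). The highest upper end of an interval in the cap was that of *Psmd11*.

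Among the proteasome classes, the immunoproteasome genes varied most between mice. None of the 5 passed, and none had an unadjusted p under 0.05 (median log2 fold change, -0.0915; adjusted p, 0.780 to 0.994). The sign of this median was not stable, since it was 0.0267 without mouse 2, 0.0116 without mice 5 and 6, and -0.227 without mouse 9. It was -0.414 with the rod and cone covariate and -0.333 with the macrophage and microglia covariate. The standard deviation of the difference between eyes over mice was 1.72 for *Psmb8* and had a median of 0.784 in this class, against 0.368 in the 19S cap, 0.528 in the 20S core, 0.612 in the assembly factors and 0.544 in the other regulators. Over all genes tested its median was 0.834, so the class as a whole did not vary more than other genes.

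*Psmb8* (ENSMUSG00000024338, chromosome 17, 34197721-34201454) replaces *Psmb5*. In control eyes it had 28.2 CPM at the lowest, 87.2 CPM at the median and 280.3 CPM at the highest, and in Best1-Nrf2 eyes 11.8, 45.0 and 383 CPM. The eyes of mouse 8 were the highest of both groups. Differences between the eyes of a mouse ran from -3.03 in mouse 6 and -2.52 in mouse 4 to 1.79 in mouse 9 and 1.82 in mouse 1 on the log2 scale. The Best1-Nrf2 eye was the higher one in 4 of 9 mice, and the log2 fold change was -0.52 (95% interval, -1.67 to 0.63, adjusted p = 0.802). In this fit the interval ran from 0.315-fold to 1.54-fold. The *Psmb8* estimate was -2.84 with rod and cone markers and -1.60 with macrophage and microglia markers as a covariate, the first of which lies outside that interval, and it was called in neither. Both covariates nearly followed the treatment, and the first estimate lies near the difference of mouse 6.

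For *Psmb9*, which replaces *Psmb6*, the level was 7.00, 17.6 and 39.6 CPM (lowest, median, highest) in control eyes and 5.38, 16.75 and 64.2 CPM in Best1-Nrf2 eyes. *Psmb10*, which replaces *Psmb7*, had 18.7, 41.1 and 68.15 CPM in control eyes and 18.3, 29.2 and 109 CPM in Best1-Nrf2 eyes. Both were higher in 4 of 9 mice and the ranges of the groups overlapped, with the Best1-Nrf2 eye of mouse 8 above every control eye. The log2 fold changes were -0.0175 (95% interval, -0.85 to 0.82, adjusted p = 0.994) and -0.14 (-0.67 to 0.40, adjusted p = 0.916). *Psmb9* overlaps *Tap1*, the peptide transporter gene, by 212 bases on the opposite strand, and *Tap1* ends 495 bases before *Psmb8*. Strand was not stated for the counting, so reads of the overlap could not be told apart.

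*Psme1* and *Psme2* encode the subunits of the interferon-induced cap and lie 5911 bases apart on chromosome 14. *Psme1* had 63.5, 132 and 258 CPM (lowest, median, highest) in control eyes and 90.3, 113 and 333.5 CPM in Best1-Nrf2 eyes. *Psme2* had 69.4, 168 and 364.5 CPM in control eyes and 100.5, 134 and 589.8 CPM in Best1-Nrf2 eyes. In both genes the highest value of each group was an eye of mouse 8. The log2 fold change was 0.18 (95% interval, -0.19 to 0.56, adjusted p = 0.780, higher in 6 of 9 mice) for *Psme1* and -0.0915 (-0.63 to 0.45, adjusted p = 0.948, higher in 3 of 9 mice) for *Psme2*. The intronless *Psme2b* had the lowest estimate of all, from 2.19 CPM at the median of control eyes to 1.655 CPM in Best1-Nrf2 eyes (log2 fold change, -0.74, 95% interval, -1.35 to -0.13, adjusted p = 0.246, lower in 8 of 9 mice). It shares 78.4% of its words with other genes, mostly with *Psme2*, and *Psme2* shares 33.5% of its own, so reads of these genes may have been mixed.

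**Figure D3:**
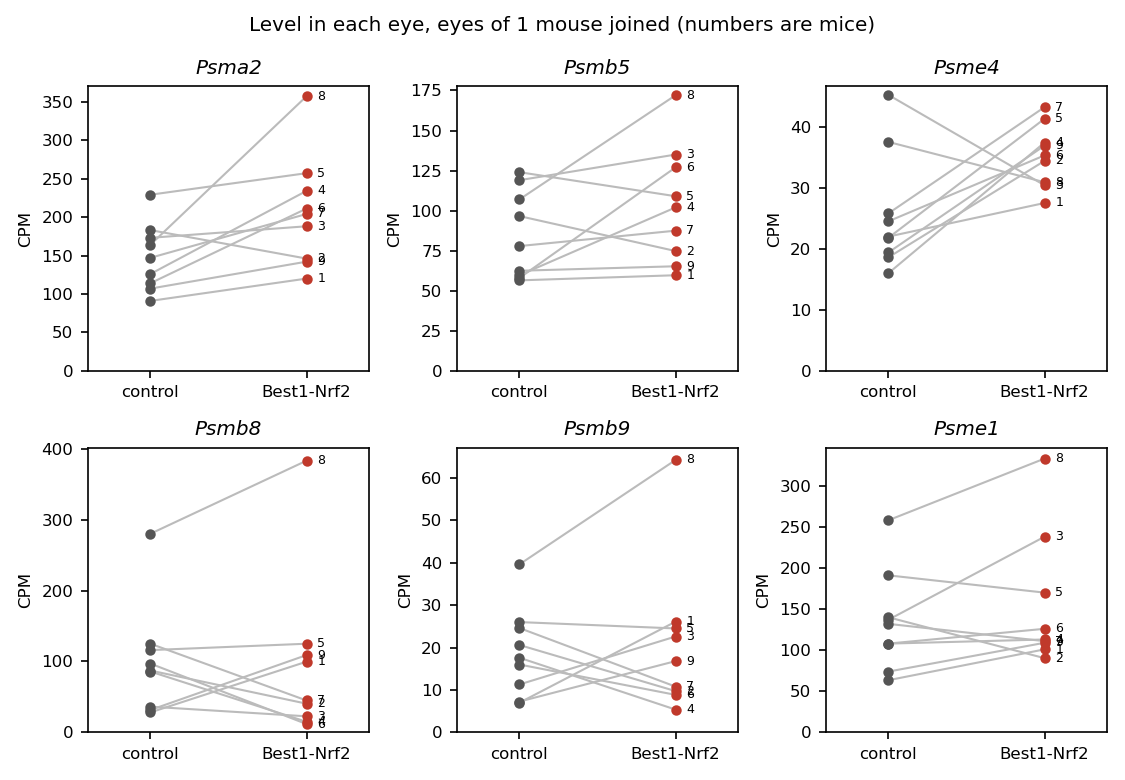
CPM in the control eye (grey) and the Best1-Nrf2 eye (red) of each mouse for 6 proteasome genes, with the eyes of a mouse joined and the mouse number at the right. *Psma2* was higher with Best1-Nrf2 in 8 of the 9 pairs without passing the test, while the lines of *Psmb8* and *Psmb9* cross, with mouse 6 lower and mice 1 and 9 higher in the Best1-Nrf2 eye.

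The balance of induced over constitutive catalytic subunits was computed per eye from CPM per kb and is given without a test. The ratio of *Psmb8* to *Psmb5* was 0.168 to 1.45 in control eyes (median, 0.517) and 0.0513 to 1.23 in Best1-Nrf2 eyes (median, 0.299), and in 6 of 9 mice it was lower on the Best1-Nrf2 side. For *Psmb10* to *Psmb7* the ratio was 0.242 to 0.767 (median, 0.494) and 0.294 to 1.00 (median, 0.463), lower in 5 of 9 mice. *Psmb9* was far below *Psmb6*, at 0.0178 to 0.0859 (median, 0.0385) and 0.0139 to 0.106 (median, 0.0445). The ranges of the groups overlapped for each ratio.

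The direction of the immunoproteasome genes differed between mice. All 5 were higher in the Best1-Nrf2 eye of mice 1, 8 and 9, and all 5 were lower in mice 2 and 7. A list of 15 interferon regulators and targets was set beside them, of which 1, *Rsad2*, was higher and none lower (median log2 fold change, 0.0849). Its mean difference between eyes was 1.42 in mouse 1 and 0.912 in mouse 9, where the immunoproteasome median was 1.06 and 0.984. In mouse 8 it was -0.00316, while that median was 0.678. It was 0.337 in mouse 2 and 0.183 in mouse 7, where that median was -1.07 and -0.863, so the directions were opposite. They were also opposite in mouse 3 (list, 0.192, class median, -0.136) and in mouse 5 (0.684 and -0.17), and in mouse 4 both were below zero (-0.123 and -0.711). In mouse 6 the list was at -1.51 and *Psmb8* at -3.03, but the class median was -0.212. T and NK cell markers summed over 8 genes to 1.30 to 3.88 CPM in control eyes and to 0.91 to 4.82 CPM in the others, with *Cd3e*, *Cd3g*, *Cd8a*, *Cd4* and *Nkg7* too low to be tested. The part of these cells and of macrophages in the levels was not tested. In a fit with macrophage markers as a covariate, 0 of 49 genes passed and 22 of 18958 genes passed in all. These markers were higher in the Best1-Nrf2 eye of every mouse (by 0.299 to 2.46 log2 CPM), so this fit cannot well separate them from the treatment.

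Of the 7 assembly factors, none passed in either direction or had an unadjusted p under 0.05 (median log2 fold change, -0.00856; adjusted p, 0.579 to 0.995). Their median also changed sign between fits. It was 0.127 without mouse 2, -0.098 without mouse 8, -0.194 without mice 3, 5, 6 and 8, and 0.888 with the rod and cone covariate. The chaperones of the alpha ring, *Psmg1* to *Psmg4*, had 0.093, -0.0086, -0.078 and 0.18. *Psmg4* had a wide spread, with 7.54, 12.4 and 72.85 CPM at the lowest, median and highest in control eyes and 7.32, 11.45 and 123 CPM in Best1-Nrf2 eyes, and its interval was -0.56 to 0.93. Among the chaperones of the cap base, *Psmd5* had the largest estimate of the class. Its level was 42.4, 75.8 and 98.6 CPM in control eyes and 50.5, 89.7 and 123 CPM in Best1-Nrf2 eyes, higher in 5 of 9 mice (log2 fold change, 0.29, 95% interval, -0.09 to 0.67, adjusted p = 0.579). *Psmd9* had -0.054 and *Psmd10* had -0.013. Thus the estimates of both kinds of chaperone lay on both sides of zero.

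The other regulators had the highest class median in the paired edgeR fit, 0.22, but none of the 3 passed. With the rod and cone covariate it was 0.366, below the core (0.704) and the assembly factors (0.888). *Psme4* (ENSMUSG00000040850, chromosome 11, 30771726-30880361, 47 exons) encodes the activator PA200. Its level was 16.02, 22.01 and 45.2 CPM (lowest, median, highest) in control eyes and 27.5, 35.3 and 43.2 CPM in Best1-Nrf2 eyes. All but 2 control eyes, those of mice 3 and 8, were below the lowest Best1-Nrf2 eye, and these were the mice in which the Best1-Nrf2 eye was the lower one. The log2 fold change was 0.53 (95% interval, 0.09 to 0.97, unadjusted p = 0.0223, adjusted p = 0.251, higher in 7 of 9 mice), or 1.44-fold. None of its words is shared with another gene. *Psme3*, which encodes a nuclear activator, had 0.18 (-0.23 to 0.58, adjusted p = 0.811, higher in 7 of 9 mice), and the inhibitor gene *Psmf1* had 0.22 (-0.08 to 0.51, adjusted p = 0.594, higher in 6 of 9 mice). Since the class holds 3 genes, its median is the value of *Psmf1*.

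The rest of the pathway was followed with lists of genes outside the name pattern. Of 11 further subunits, assembly and accessory factors, 1 was higher and none lower (median log2 fold change, 0.033). This was *Akirin2*, which carries assembled proteasomes into the nucleus, with means of 43.6 CPM (control) and 87.7 CPM (Best1-Nrf2) (log2 fold change, 0.97, SE 0.15, adjusted p = 0.00236, higher in 9 of 9 mice). The maturation factor *Pomp* (0.015, adjusted p = 0.992) and the cap subunit genes *Sem1* (0.033, adjusted p = 0.983) and *Adrm1* (-0.095, adjusted p = 0.877) did not pass. Of 10 genes for the Nrf1 route and for the shuttles that carry ubiquitinated cargo, 1 was higher, the receptor and Nrf2 target *Sqstm1* (0.91, SE 0.18, adjusted p = 0.0120, 9 of 9 mice). *Nfe2l1* itself had -0.23 (adjusted p = 0.90), with 4 of 9 mice higher. The ubiquitin gene *Ubb* (0.028, adjusted p = 0.983) and the E1 gene *Uba1* (0.23, adjusted p = 0.598) did not pass. Of 10 peptide loading genes, 1 was higher, the class I heavy chain gene *H2-K1* (1.03, SE 0.19, adjusted p = 0.00677, 8 of 9 mice), while *Tap1* (0.045) and *Tap2* (-0.018) had estimates near zero.

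**Figure D4:**
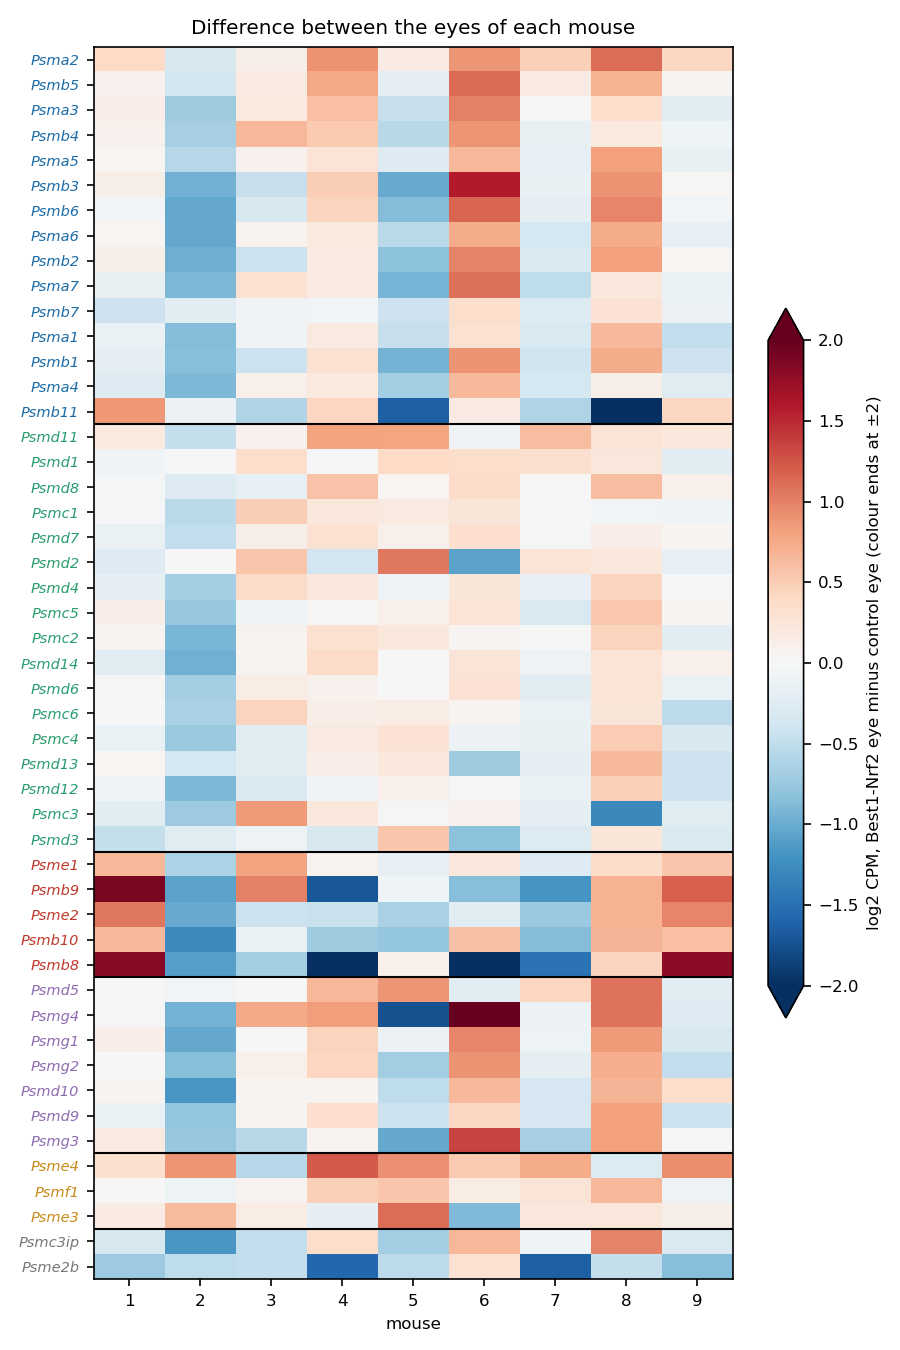
Log2 CPM of the Best1-Nrf2 eye minus the control eye for 49 proteasome genes (rows, ordered by class and estimate) in 9 mice (columns), with red for higher and blue for lower in the Best1-Nrf2 eye. Core genes are red nearly throughout in mice 4, 6 and 8 and blue in mice 2 and 5, and no row has 1 colour in all 9 mice.

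The core genes often differed in the same direction within a mouse, and in opposite directions between mice. Without *Psmb11*, which had few counts, 14 of 14 core genes tested were higher in the Best1-Nrf2 eye of mice 6 and 8, and 13 were in mouse 4. In mouse 2, 14 of 14 were lower, and in mouse 5, 13 were. Over all 15 core genes tested, the median per mouse ran from -0.844 to 0.887 (SD, 0.555). For the 19S cap it ran from -0.648 to 0.270 (SD, 0.274). The median of the assembly factors ran from -0.858 in mouse 2 to 0.897 in mouse 6.

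These directions went with the way in which counts were spread over short and long transcripts. For each library, the slope of log2 CPM relative to each gene's mean was taken on log2 transcript length, over 4869 protein-coding genes with a mean of at least 5 log2 CPM and without the proteasome genes. A lower slope means relatively more counts on short transcripts. The difference in slope between eyes was -0.407 in mouse 6, -0.287 in mouse 8 and -0.193 in mouse 4, where the core medians were 0.887, 0.688 and 0.297. It was 0.378 in mouse 2, 0.278 in mouse 5 and 0.114 in mouse 7, where the core medians were -0.844, -0.555 and -0.281. In mice 1, 3 and 9 both were nearer to zero (slope, -0.0795, 0.0162 and -0.0129; core median, 0.0335, 0.0757 and -0.125). The order of the immunoproteasome medians was different, with the highest in mice 1 and 9. With the slope as a covariate, the core median was -0.0792 and 1 gene, *Psma2*, was called. Without mice 5 and 6, whose eyes lay furthest apart on the first component, the core median was -0.0671. Without mice 3, 5, 6 and 8 it was -0.166, and 0 genes were called in both fits.

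**Figure D5:**
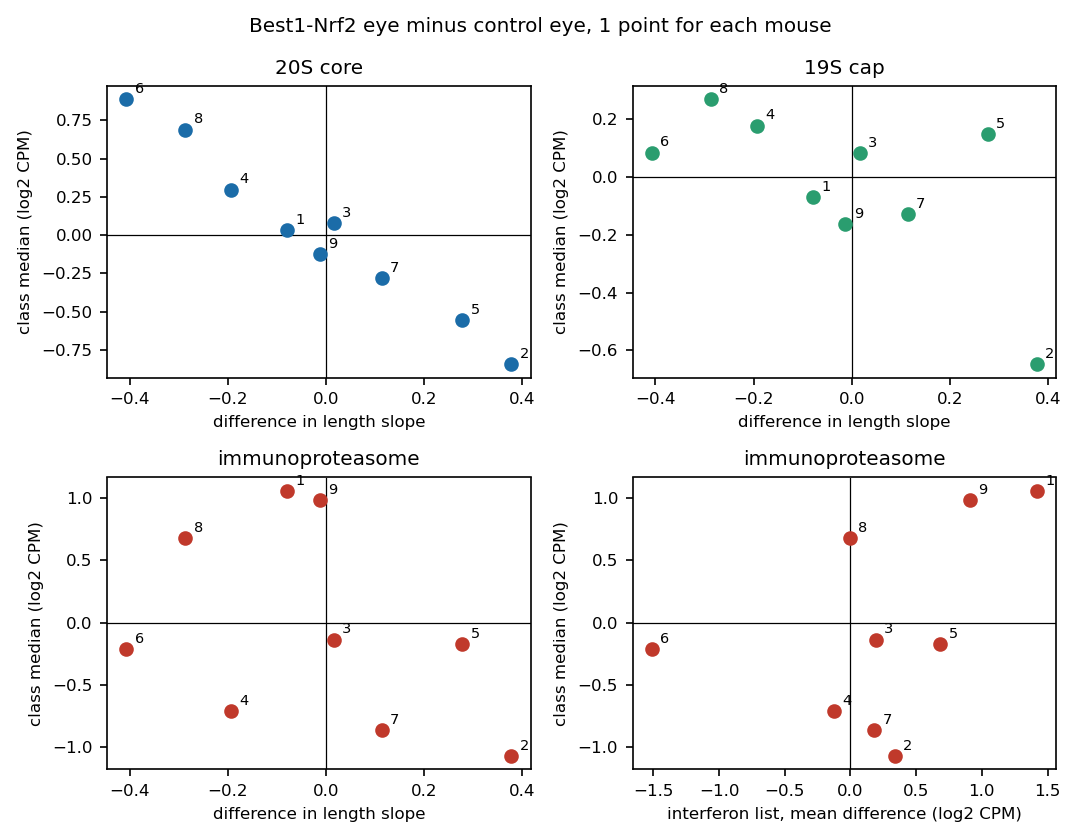
Median log2 CPM difference (Best1-Nrf2 minus control eye) of a class in each of 9 mice, against the difference in length slope (3 panels) or in the mean of the interferon list (last panel). The core points run from 0.887 in mouse 6 at a slope difference of -0.407 down to -0.844 in mouse 2 at 0.378, and the cap points from 0.270 in mouse 8 at -0.287 to -0.648 in mouse 2, with mouse 5 at 0.150 and a slope difference of 0.278.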

How the data were processed

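The values deposited by the authors are in whole numbers for each Ensembl gene ID, without scaling between libraries, and were treated like expected counts, a unit inferred from the values. CPM are counts divided by the TMM-scaled library total in units of 1e6. The authors aligned reads to mm10 (Ensembl release 91) with STAR, counted with featureCounts and, in parallel, ran Salmon 0.8.1 and tximport, and which of these made the table is not stated in the sources used here. RNA was amplified, and without molecular identifiers PCR copies cannot be separated from distinct molecules. Sequencing runs could not be modelled, since the labels do not assign libraries to them.

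Groups and mouse numbers are from the labels, in which a number marks an individual and is shared by its eyes. Once group means were removed, eyes of 1 mouse had a median correlation of -0.00095 (range, -0.373 to 0.644). No 2 libraries of a group were duplicates (72 pairs, lowest chi-square per degree of freedom, 44.5). Genes passing filterByExpr were fitted with TMM scaling and the quasi-likelihood test of edgeR 4.0.16 in R 4.3.3, with mouse as a block, on all genes. Benjamini-Hochberg adjustment was used (threshold, 0.05), standard errors came from the F statistic, and log2 CPM used a prior count of 2. Alternatives used DESeq2 1.42.0 and limma 3.58.1, other scalings, filters and covariates, and omission of each mouse. Coordinates and transcript lengths are from GENCODE M21 on GRCm38. Shared reads were estimated from 31-base words. Of the methods, only the paired edgeR fit was tested on simulated counts, which held no differences between mice.

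Described in full were the genes of the immunoproteasome, the assembly factors and the other regulators. Called core and cap genes were to be added, but none was called, so the core and cap genes described in detail, *Psma2*, *Psmb5*, *Psmb6*, *Psmb7*, *Psmd11*, *Psmd3*, *Psmd14* and *Psmd4*, were picked after their values were seen. The members, lists and tests were chosen with earlier results of these data known.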

Additional observations from a re-analysis of the deposited data

Results flagged for a closer look

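For each of the 49 proteasome genes tested, the 9 eyes of a group were screened for a highest or lowest eye whose gap to the next, relative to the range of the group, exceeded the 95% limit of Dixon's test. Of 98 groups, 8 had such an eye, where about 4.9 would by chance. Values are log2 CPM. *Psmc3*, an ATPase of the cap, was highest in the control eye of mouse 8 (9.36, next 8.20) and in the Best1-Nrf2 eye of mouse 3 (8.86, next 8.07). *Psmc4*, another ATPase, was highest in the control eye of mouse 2 (7.63, next 7.27). *Psmd1* was highest in the Best1-Nrf2 eye of mouse 3 (7.37, next 7.15). In the Best1-Nrf2 eye of mouse 8, 2 immunoproteasome genes stood apart, *Psmb10* (6.77, next 5.47) and *Psme2* (9.21, next 7.77). *Psmf1* was lowest in both eyes of mouse 3, at 4.87 in the control eye (next 5.31) and 4.94 in the Best1-Nrf2 eye (next 5.48). Mice 3 and 8 each had a library among the 5 that stood above 50 on the first principal component, and mouse 2 had none. The cause of these values was not tested.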

How the results depend on the processing

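The absence of calls held under most of the 21 alternative fits and at an adjusted p under 0.1. With a covariate for the length slope, chosen after seeing the data, 1 gene was higher (*Psma2*), and with limma voom and sample weights 1 gene was lower (*Psme2b*, log2 fold change, -0.92, adjusted p = 0.0328, in a fit where 2.65% of all genes were lower). Without the replicate block for mouse, 0 genes were called, the lowest adjusted p was 0.299 and the core median was 0.019, and the block changed no call. Over fits without 1 mouse, 0 genes were called, the lowest adjusted p ranged from 0.0733 to 0.450, and the core median ranged from -0.14 to 0.0905. With rod and cone markers as a covariate, the medians moved to 0.704 for the core, 0.888 for the assembly factors and 0.366 for all 47 grouped genes, 25 of 18958 genes were called and no proteasome gene was, with a lowest adjusted p of 0.173. The mean of these markers was lower in the Best1-Nrf2 eye than in its fellow in 8 of 9 mice, all but mouse 6. The covariate thus nearly follows the treatment, and the estimates with it rest largely on mouse 6. The cause of the shift was not tested. With DESeq2 the lowest adjusted p was 0.0527. Of 1029 estimates of single genes that were not called in the paired edgeR fit, 154 changed sign, in 36 of 49 genes. The 13 genes that kept their sign were *Psma2*, *Psmb5*, *Psmb8*, *Psmd1*, *Psmd3*, *Psmd5*, *Psmd8*, *Psmd11*, *Psmd13*, *Psme1*, *Psme4*, *Psmf1* and *Psme2b*. The estimate of *Psmb8*, not called in any fit, ran from -2.84 with the rod and cone covariate to -0.0605 without the replicate block. Low counts limit *Psma8*, which was not tested, and *Psmb11*.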
